A study of Mus musculus with 4 samples.

Results

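The genes described here are 10 long non-coding RNAs, among them hosts of microRNAs and of small nucleolar RNAs (snoRNAs): Neat1, Malat1, Mir155hg, Mir22hg, Mir17hg, Gas5, Snhg1, Snhg12, Snhg15 and Meg3. They were chosen by symbol, as the genes whose Ensembl identifier in the count table matches one of these names in the GENCODE vM21 annotation. All 10 were found among the 49315 genes of the table, and 10 of 10 were among the 14656 genes with enough counts to be tested.

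Bone marrow-derived macrophages, cells grown out of marrow progenitors, were sequenced in 4 libraries, 2 labelled M1 and 2 labelled M2. Both groups are Lyz2Cre+, with Cre recombinase at the myeloid gene Lyz2, and both were grown with 30% L-cell supernatant and polarized on day 7 for 24 h in serum-free medium. M1 cells received LPS at 100 ng/ml with interferon gamma at 50 ng/ml, and M2 cells received IL-4 and IL-13 at 10 ng/ml each. The labels do not say whether these libraries received the EGF receptor inhibitor erlotinib, which the series also used, nor whether the libraries of a group came from separate animals. The p-values below therefore measure only the spread between libraries, which may be technical. Unpolarized cells were not analysed here, and "higher in M2" can as well be read as "lower in M1".

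Long non-coding RNAs act as RNA and not through a protein product. Neat1 is the scaffold of paraspeckles and Malat1 is a component of nuclear speckles, both of them bodies in the nucleus. Host genes are transcribed as longer precursors: Drosha and then Dicer cut microRNAs out of the precursor, whereas most snoRNAs are trimmed out of spliced introns, and the exons that remain are often removed by nonsense-mediated decay. In macrophages, Toll-like receptor signals are known to induce miR-155, and paraspeckles are known to retain certain RNAs and proteins in the nucleus.

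The 3 microRNA hosts carry the precursors of 8 microRNAs. The mature strands shown here are those by which these microRNAs are usually known, since it is their hosts that were counted and their seeds that define their possible targets. RefSeq sequences (GRCm38.p6) are written 5′ to 3′ with the seed, bases 2 to 8, in capitals.
mmu-miR-155-5p: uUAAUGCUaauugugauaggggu
mmu-miR-22-3p: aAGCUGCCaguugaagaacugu
mmu-miR-17-5p: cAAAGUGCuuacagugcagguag
mmu-miR-20a-5p: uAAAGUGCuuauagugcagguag
mmu-miR-18a-5p: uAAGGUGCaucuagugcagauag
mmu-miR-19a-3p: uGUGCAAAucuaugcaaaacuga
mmu-miR-19b-3p: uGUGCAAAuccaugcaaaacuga
mmu-miR-92a-3p: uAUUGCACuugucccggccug
These 8 strands hold 6 different seeds. miR-17-5p and miR-20a-5p share one, and miR-19a-3p and miR-19b-3p share another. miR-155-5p lies at chr16:84714143-84714165 on the plus strand within an exon of Mir155hg. miR-22-3p lies at chr11:75463772-75463793, also plus strand and in an exon, of Mir22hg. The 6 microRNAs of the miR-17-92 cluster lie one after another in an exon of Mir17hg, the first, miR-17-5p, at chr14:115043684-115043706 on the plus strand.

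**Figure D1:**
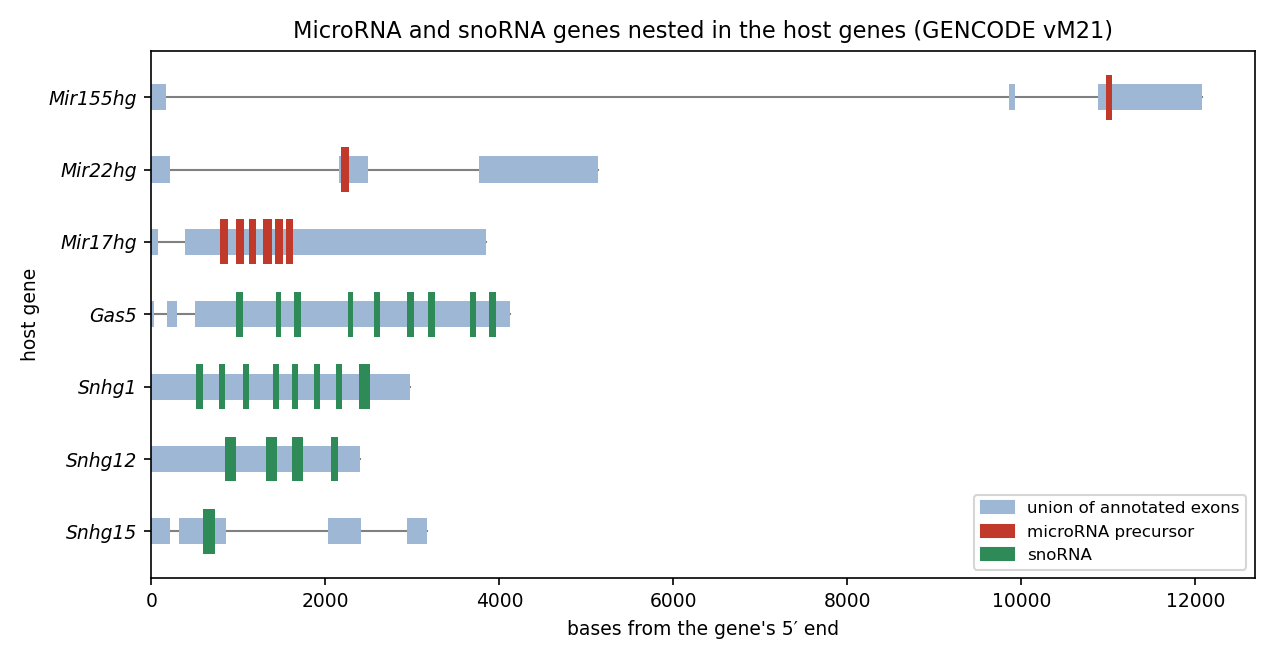
Each line is a host gene drawn from its 5′ end in bases, with the union of annotated exons in blue, microRNA precursors in red and snoRNA genes in green. Mir155hg spans 12079 bases with its microRNA near the 3′ end, whereas Gas5 and Snhg1 are filled with snoRNA genes along most of their length.

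Libraries held 26806370 to 39506242 counts. They were scaled by the trimmed mean of M values (TMM), with factors of 0.846 and 0.866 in M1 and 1.17 and 1.17 in M2, and levels are given as TMM-normalized CPM, read counts scaled to a common library size. The labels were checked on 3 genes: the M1 gene Nos2 stood at 8035 and 7258 CPM in M1 against 10.6 and 9.66 CPM in M2, the M2 gene Mrc1 at 2.88 and 2.03 CPM against 1058 and 1012 CPM, and the M2 gene Arg1 at 0.789 and 0.529 CPM against 10.1 and 11.6 CPM. All 10 macrophage markers had counts and they summed to 8678 to 8712 CPM in M1 and 4656 to 4769 CPM in M2. The markers did not move together: of 9 tested, 7 were lower in M2 and 2, Cd68 and Csf1r, were higher. Cd14 stood at 3035 and 3241 CPM in M1 and 37.2 and 33.3 CPM in M2, whereas Cd68 stood at 130 and 107 CPM in M1 and 1225 and 1261 CPM in M2. Lyz2 itself, the locus that carries Cre and also a macrophage marker, stood at 25.3 and 27.3 CPM in M1 and 6.51 and 6.88 CPM in M2. Lymphocyte markers summed to 2.13 to 2.77 CPM in M1 and 2.97 to 3.19 CPM in M2, with 1 of 4 tested higher in M2 and 1 lower. In bulk RNA, fewer cells of a type and less RNA per cell cannot be told apart. Against TMM, scaling by total count moved the median log2 fold change of all genes by 0.45 and upper-quartile scaling moved it by 0.18, in both cases towards M2. Changes below are relative to the TMM centre.

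Of the 10 genes, 8 were called at an adjusted p under 0.05 (edgeR's quasi-likelihood test, Benjamini-Hochberg over all tested genes), where 77.2% of all tested genes were called. Neat1, Snhg1, Snhg12 and Meg3 were higher in M2, 4 genes where 39.7% of tested genes were called in that direction. Malat1, Mir155hg, Mir22hg and Mir17hg were lower in M2, 4 genes where 37.5% were. Gas5 and Snhg15 were not called. The libraries of M1 and M2 did not overlap in CPM for 9 of the 10, all but Gas5, where 88.5% of all tested genes did not overlap. The shares among these genes are thus close to the background, and the median log2 fold change was 0.14 against 0.04 over all tested genes. By role, 3 of 3 microRNA hosts were lower in M2, with a median log2 fold change of -1.22, and 2 of 4 snoRNA hosts were higher, with a median of 0.22. By edgeR 0 snoRNA hosts were lower, also at an unadjusted p under 0.05 and by limma-voom and DESeq2, and by DESeq2 0 of the 4 were called higher (3 by edgeR at an unadjusted p under 0.05). Without M1 replicate 1, and without M2 replicate 2, 2 genes in place of 4 were called higher in M2, and without M1 replicate 2 there were 6. The count of genes called lower stayed at 4 in each case.

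**Figure D2:**
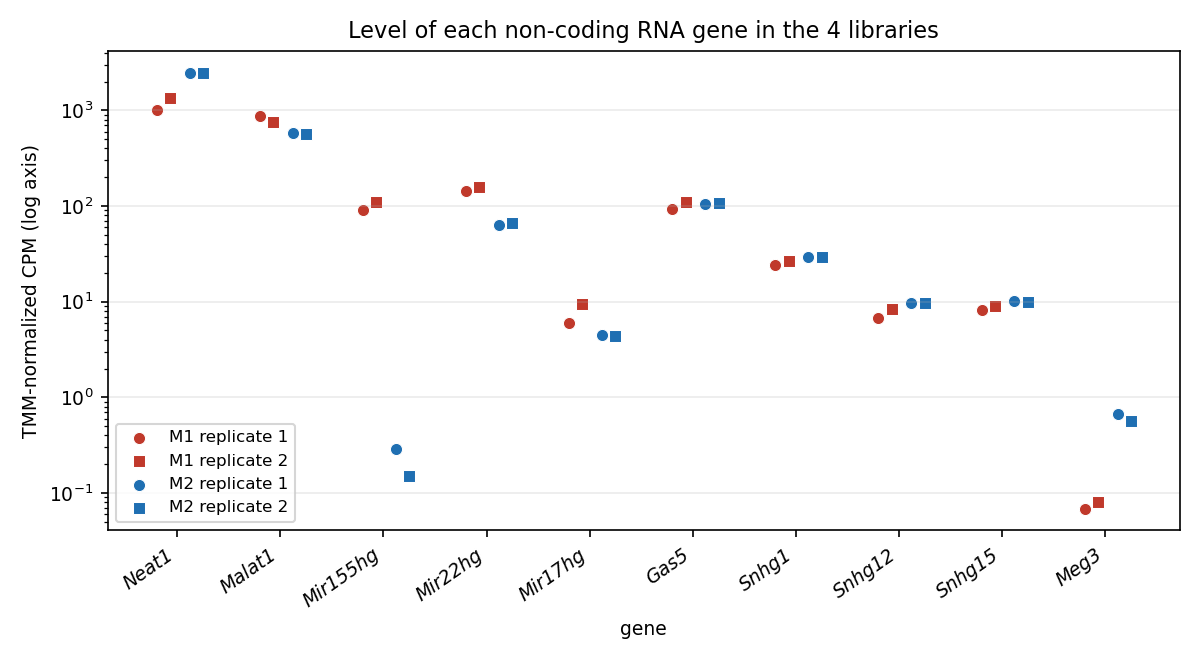
Points are the level of each gene in each library, in TMM-normalized CPM on a log axis, with M1 in red, M2 in blue and the shape giving the replicate. Mir155hg separates the groups most, from 91.1 and 109.5 CPM in M1 to 0.287 and 0.152 CPM in M2, and the Gas5 libraries overlap.

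Neat1, the paraspeckle scaffold (chr19:5824708-5845478, minus strand), took the most counts of the 10 in every library. It stood at 1010.0 and 1345 CPM in M1 and at 2472 and 2482 CPM in M2. Both M2 libraries lay above both M1 libraries, and the M2 libraries were almost equal whereas those of M1 were apart. The means were 1178 ± 237 CPM (SD, n = 2) and 2477 ± 6.53 CPM (SD, n = 2), a 2.10-fold higher level in M2 (log2 fold change 1.07, SE 0.12, adjusted p = 1.55e-05 by edgeR's quasi-likelihood test). By CPM it ranked 19th of all genes in both M2 libraries and 163rd and 101st in the M1 libraries. It took 0.289% of all counts in each M2 library and 0.0854% and 0.116% in the M1 libraries. The gap between the M1 libraries, 0.41 on the log2 scale, was exceeded by 16.4% of tested genes. Tested against a log2 change of 1 in place of 0, Neat1 was not called (adjusted p = 0.291 by edgeR's glmTreat).

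Malat1, the nuclear speckle RNA, lies on the same strand of chromosome 19 (chr19:5795690-5802672) and moved the other way. Its level was 880.5 and 753 CPM in M1 and 573 and 566 CPM in M2, so the groups did not overlap. The means were 817 ± 90.3 CPM and 569.5 ± 4.27 CPM (SD, n = 2 each), with 1.43-fold more in M1 (log2 fold change -0.52, SE 0.08, adjusted p = 2.44e-05 by edgeR's quasi-likelihood test). This call rested on the scaling. As a share of all counts Malat1 took 0.0745% and 0.0651% in M1 and 0.0669% and 0.0661% in M2, and both M2 values lie within the M1 range. With total-count scaling the log2 fold change was -0.071 and not called (adjusted p = 0.380 by edgeR's quasi-likelihood test), and its direction was the same under all 14 alternatives.

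The ratio of Neat1 to Malat1 within a library does not depend on scaling. Neat1 counts were 1.15 and 1.79 times the Malat1 counts in M1 and 4.32 and 4.38 times in M2. The mean ratio was 1.47 ± 0.453 for M1 and 4.35 ± 0.0441 for M2 (SD, n = 2 per group), and every M2 library lay above both M1 libraries. Together the pair made up 83.0% to 83.5% of the counts of all 10 genes in M1 and 93.0% to 93.2% in M2. Per kilobase of annotated exon, Malat1 had the higher level in M1, 117 ± 12.9 against 56.7 ± 11.4 CPM per kb for Neat1, and Neat1 had the higher level in M2, 119 ± 0.314 against 81.6 ± 0.612 CPM per kb (SD, n = 2 each). That order depends on the isoform counted. Neat1 has a long isoform of 20771 bases and a short one of 3004 bases, and per kilobase of the short one the Neat1 level was 336 and 448 CPM per kb in M1 and 823 and 826 CPM per kb in M2, above Malat1 in every library. Gene counts do not separate the isoforms. The long Neat1 isoform and Malat1 end without a poly(A) tail, as background, and these libraries were made from oligo(dT)-selected RNA, so the levels of both hold only what that selection retained.

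**Figure D3:**
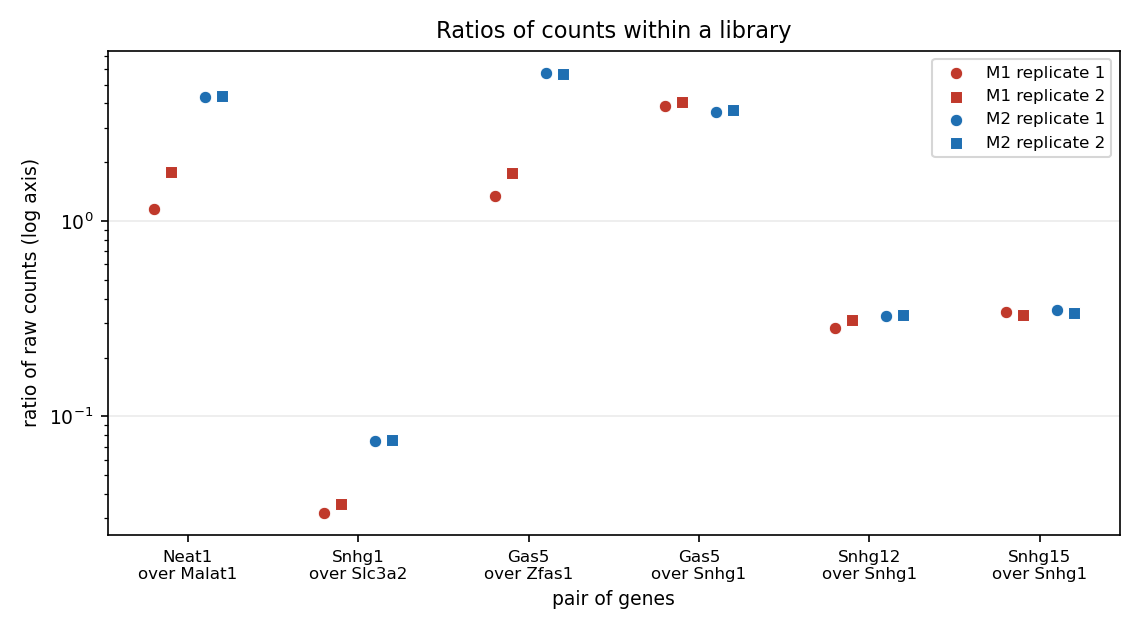
Points are ratios of raw counts of 2 genes within each library, on a log axis, with M1 in red, M2 in blue and the shape giving the replicate. Neat1 over Malat1, Snhg1 over Slc3a2 and Gas5 over Zfas1 separate the groups widely. The ratios among Gas5, Snhg1, Snhg12 and Snhg15 differ less, and of these only Snhg15 over Snhg1 overlaps between the groups.

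Of 14 paraspeckle proteins, a list from general knowledge, 2 were higher in M2, 6 were lower and 6 were not called, with a median log2 fold change of -0.037, whereas under total-count scaling 9 were higher and 3 lower, with a median of 0.41. Pspc1, a core paraspeckle protein, was higher, at 7.21 and 8.42 CPM in M1 and 19.3 and 20.7 CPM in M2 (log2 fold change 1.36, adjusted p = 9.82e-09, edgeR's quasi-likelihood test as for all values of this paragraph). Its partner Sfpq was also higher, by a log2 fold change of 0.37 (adjusted p = 9.84e-05). Cpsf7, a cleavage factor subunit, and Smarca4, a chromatin remodeller, were the lowest in M2 of the list, at log2 fold changes of -0.77 (adjusted p = 1.18e-08) and -0.68 (adjusted p = 9.57e-08). Of 15 nuclear speckle proteins, 11 were lower with a median of -0.30, whereas under total-count scaling 7 were higher and 3 lower with a median of 0.15. Under TMM 0 of them were called higher by edgeR, and 0 at an unadjusted p under 0.05, by DESeq2 or by limma-voom. Tra2a, a splicing factor, and Clk1, a kinase of splicing factors, had the largest differences, with log2 fold changes of -1.04 (adjusted p = 1.81e-09) and -0.86 (adjusted p = 4.78e-09).

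Mir155hg, the host of miR-155 (chr16:84703167-84715245, plus strand), differed most of the 10. It had 2654 and 2693 counts in M1 and 9 and 7 counts in M2, that is 91.1 and 109.5 CPM against 0.287 and 0.152 CPM. Both M1 libraries are far above both M2 libraries. The means were 100.3 ± 13.0 CPM and 0.220 ± 0.0957 CPM (SD, n = 2 each; log2 fold change -8.89, SE 0.18, adjusted p = 2.00e-13 by edgeR's quasi-likelihood test). From the summed counts the M1 level was 481 times the M2 level, with an exact 95% interval of 296 to 843 that covers counting error only. Its flanking gene Mrpl39, a mitochondrial ribosomal protein, was lower in M2 by much less, at 33.7 and 34.6 CPM in M1 and 22.4 and 23.1 CPM in M2 (log2 fold change -0.59, adjusted p = 2.50e-06). Of the dendritic cell markers, 4 of 5 tested ones were lower in M2 and 1 higher. Xcr1, Flt3 and Clec9a, and Mir155hg itself, had enough counts to be tested only through the M1 libraries. Their direction was thus fixed by the filter, whereas Ccr7 and Zbtb46 passed it in both groups. All 8 dendritic cell markers summed to 456.5 to 478 CPM in M1 and 3.95 to 4.66 CPM in M2. Ccr7, also induced in activated macrophages, made up most of that sum, and Xcr1, a chemokine receptor of cross-presenting dendritic cells, was at 30.9 and 31.9 CPM in M1 and 0.0638 and 0.0868 CPM in M2 (log2 fold change -8.59, adjusted p = 2.96e-15 by edgeR's quasi-likelihood test). Zbtb46, a dendritic cell transcription factor, was the marker higher in M2 (log2 fold change 0.97, adjusted p = 0.00680 by edgeR, 0.0738 and not called by DESeq2), and Flt3, Clec9a, Siglech, Cd209a and Itgae each had a mean under 1 CPM in both groups. The 9 mast cell and basophil markers also summed higher in M1, at 71.7 to 75.7 CPM against 1.44 to 1.48 CPM in M2. Of the 4 tested, 2 were lower in M2, 1 was higher and 1 was not called. The lower ones, Hdc and Kit, had enough counts to be tested only through the M1 libraries. The higher one, Mcpt8, had enough only through the M2 libraries. The direction of each of these calls was thus fixed by the filter. Hdc, the histamine-forming enzyme, was at 68.1 and 64.7 CPM in M1 and 0.223 and 0.0434 CPM in M2, and Kit, the stem cell factor receptor, was lower by a log2 fold change of -4.65, whereas Mcpt4, Prss34 and Ms4a2 had 0 counts in every library. The part of both marker lists in the Mir155hg result was not tested.

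Mir22hg, the host of miR-22 (chr11:75461539-75466676, plus strand), was at 144 and 157 CPM in M1 and at 63.1 and 66.1 CPM in M2. The groups were well apart and the replicates of each were close. The level was 2.33-fold higher in M1, 150.5 ± 9.65 against 64.6 ± 2.17 CPM (SD, n = 2 each; log2 fold change -1.22, SE 0.07, adjusted p = 1.42e-10 by edgeR's quasi-likelihood test). Mir22hg shares 206 exonic bases with the protein-coding gene Tlcd2 on the same strand, so reads there cannot be assigned to one of them. Tlcd2 was also lower in M2, at 5.66 and 5.82 CPM in M1 and 2.08 and 2.32 CPM in M2 (log2 fold change -1.37, adjusted p = 9.81e-07 by the same test). Mir22hg had 25.4 and 27.0 times the counts of Tlcd2 in M1 and 30.4 and 28.5 times in M2. On the other side Wdr81, a gene of endosome biology, was higher in M2 (log2 fold change 0.76, adjusted p = 2.12e-08).

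Mir17hg, the host of the miR-17-92 cluster (chr14:115042879-115046727, plus strand), is known as a proliferation-associated gene that MYC activates. It was the least even of the 10 within M1, at 6.04 and 9.52 CPM, against 4.47 and 4.43 CPM in M2. Both M1 libraries lay above both M2 libraries, but the gap between the M1 libraries (0.66 on the log2 scale) was exceeded by only 8.79% of tested genes. The means were 7.78 ± 2.46 and 4.45 ± 0.0290 CPM (SD, n = 2 each; log2 fold change -0.79, SE 0.19, adjusted p = 0.00288 by edgeR's quasi-likelihood test). Without M1 replicate 2 the log2 fold change was -0.45, without M1 replicate 1 it was -1.10, and with total-count scaling it was -0.34 and not called (adjusted p = 0.128).

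Per kilobase of annotated exon, the order of the 3 microRNA hosts in M1 was Mir22hg at 78.2, Mir155hg at 70.0 and Mir17hg at 2.20 CPM per kb. In M2 the order was Mir22hg at 33.6, Mir17hg at 1.26 and Mir155hg at 0.153 CPM per kb. In M1 Mir155hg had 0.634 and 0.696 times the counts of Mir22hg, and in M2 it had 0.00455 and 0.00230 times. The counts describe the host transcripts only. All 8 microRNA precursors annotated inside the hosts had 0 counts in all 4 libraries, and these libraries were not made to capture mature microRNAs, so no microRNA level was measured. Precursor and host exons overlap, so a read there fits both.

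Other microRNA hosts moved in both directions. Of 13 listed, 9 were found and 6 tested: 3 were higher in M2 and 3 lower, with a median log2 fold change of 0.80. Mir142hg, the host of the blood cell microRNA miR-142, was lower in M2, at 22.6 and 28.8 CPM in M1 and 11.5 and 11.2 CPM in M2 (log2 fold change -1.18, adjusted p = 3.62e-07 by edgeR's quasi-likelihood test). Mir6236 was lower by a log2 fold change of -0.70 (adjusted p = 0.0167). It is a microRNA gene and not a host transcript, but it was on the list and is counted among the 3 lower and in the median. Mir99ahg, the host of the miR-99a, let-7c and miR-125b-2 cluster, was 24.2-fold higher in M2, at 0.549 and 0.569 CPM in M1 and 13.4 and 13.6 CPM in M2 (log2 fold change 4.59, adjusted p = 1.57e-12). H19, an imprinted RNA that also hosts miR-675, had 1 and 1 counts in M1 and 255 and 342 counts in M2, a ratio of 207 with an exact 95% interval of 57.1 to 1715.

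The proteins that make and use microRNAs were mixed. Of 18 listed, 16 were tested, 6 were higher in M2, 7 lower and 3 not called, with a median log2 fold change of -0.046 that was 0.40 under total-count scaling (10 higher, 2 lower). Zc3h12a, the RNase Regnase-1 that is known to cut microRNA precursors and cytokine messages, had the largest difference, at 203 and 209 CPM in M1 and 42.9 and 43.4 CPM in M2 (log2 fold change -2.26, adjusted p = 4.23e-14 by edgeR's quasi-likelihood test). Tnrc6a, a silencing scaffold, was lower by -1.05 (adjusted p = 3.52e-10). Ago4, an Argonaute, and Prkra, a Dicer partner, were higher by log2 fold changes of 1.09 (adjusted p = 6.97e-08) and 0.91 (adjusted p = 7.02e-07).

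Reported targets of miR-155 were read beside its host, with sites looked up in GENCODE vM21 transcripts. The 3 sites shown are those of Socs1, Ikbke and Ets1, listed targets whose levels are given after them. Capitals mark the letters AGCATTA, which pair with the miR-155-5p seed, in the 3′ UTR on the strand of the gene.
Socs1, chr16:10784205-10784228, minus strand: ctgccgctgtgccgcAGCATTAag
Ikbke, chr1:131255151-131255174, minus strand: attggccaacaaactAGCATTAct
Ets1, chr9:32757193-32757216, plus strand: cactctgggttttaaAGCATTAac
The letters AGCATTA were found in the 3′ UTR of 10 of the 12 listed targets, all but Il13ra1 and Fos, and in 9.23% of the 12575 tested genes with a 3′ UTR. Of the 12, 3 were higher in M2, 8 lower and 1 not called, with a median log2 fold change of -0.86 (5 higher and 7 lower with a median of -0.41 under total-count scaling). Socs1, an inhibitor of cytokine signalling, was at 456 and 473.5 CPM in M1 and 36.7 and 36.7 CPM in M2 (log2 fold change -3.66, adjusted p = 6.14e-16 by edgeR's quasi-likelihood test). Ikbke, a kinase of the interferon response, was likewise lower in M2 (log2 fold change -3.13, adjusted p = 2.70e-15). Ets1, a transcription factor, was higher, at 7.65 and 5.78 CPM in M1 and 26.5 and 23.8 CPM in M2 (log2 fold change 1.89, adjusted p = 2.37e-09). The receptor Csf1r was higher too (log2 fold change 2.64, adjusted p = 6.74e-14). The 8 of 12 called lower in M2 stand beside 37.5% of all tested genes. Mir155hg was also lower in M2. The list was chosen with earlier results of these data known, and the part of miR-155 in these levels was not tested.

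Over all tested genes the same letters went with a small difference. The 1161 genes with AGCATTA in the 3′ UTR had a median log2 fold change of 0.11, and 44.5% of them were higher in M2 and 35.2% lower. All 12575 genes with a 3′ UTR had a median of 0.07, with 42.5% higher and 37.6% lower. The genes with a match also have longer 3′ UTRs, with a median of 2726 against 1170 bases, and the part of length was not tested. Genes with a site for miR-22-3p (GGCAGCT) had a median of 0.09, those for miR-17-5p (GCACTTT) 0.07, those for miR-18a-5p (GCACCTT) 0.08, those for miR-19a-3p (TTTGCAC) 0.07 and those for miR-92a-3p (GTGCAAT) 0.04. A match of 7 letters is a description and not a site shown to be used.

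The 10 listed targets of the miR-17-92 cluster divided evenly, 5 higher and 5 lower in M2, with a median log2 fold change of 0.052 (6 higher and 4 lower with a median of 0.50 under total-count scaling, and a median of 0.24 under upper-quartile scaling). Hif1a, the hypoxia factor, and Stat3, a cytokine-activated transcription factor, were lower in M2 (log2 fold changes -3.86, adjusted p = 1.60e-15, and -3.32, adjusted p = 5.11e-15, by edgeR's quasi-likelihood test). Tgfbr2, a TGF-beta receptor, and Sirpa, an inhibitory receptor of macrophages, were higher (log2 fold changes 1.15, adjusted p = 1.05e-07, and 0.86, adjusted p = 4.16e-08). The letters GCACTTT, which pair with the seed of miR-17-5p and miR-20a-5p, were found in the 3′ UTR of 8 of the 10 and of 14.4% of the 12575 tested genes with a 3′ UTR.

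Under TMM scaling the 4 snoRNA hosts differed little between M1 and M2. Total-count scaling called each of them higher in M2, at log2 fold changes of 0.53 (Gas5), 0.65 (Snhg1), 0.80 (Snhg12) and 0.68 (Snhg15). Upper-quartile scaling also called each higher, at log2 fold changes of 0.26 to 0.54. Gas5, known also as a decoy of the glucocorticoid receptor (chr1:161034422-161038539, plus strand), was at 93.3 and 109.6 CPM in M1 and at 105.7 and 108.3 CPM in M2. The M2 libraries lie inside the M1 range. The means were 101 ± 11.5 and 107 ± 1.85 CPM (SD, n = 2 each), and no difference was called (log2 fold change 0.08, SE 0.07, adjusted p = 0.344 by edgeR's quasi-likelihood test). The sign turned without M1 replicate 1 (log2 fold change -0.038). Gas5 was called higher in M2 without M1 replicate 2 (0.20, adjusted p = 4.12e-04), with upper-quartile scaling (0.26, adjusted p = 0.00565) and with total-count scaling (0.53, adjusted p = 3.32e-05).

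Snhg1, host of a run of box C/D snoRNAs (chr19:8723475-8726443, plus strand), was at 24.0 and 26.9 CPM in M1 and at 29.3 and 29.1 CPM in M2. The groups did not overlap, though the M1 libraries are farther from each other than the higher of them is from either M2 library. The difference was small, 25.4 ± 2.07 against 29.2 ± 0.101 CPM (SD, n = 2 each; log2 fold change 0.20, SE 0.08, adjusted p = 0.0277 by edgeR's quasi-likelihood test). It was not called by DESeq2 (adjusted p = 0.163), nor without M1 replicate 1 (0.180), M2 replicate 1 (0.111) or M2 replicate 2 (0.109) by edgeR.

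Snhg12, host of H/ACA and C/D snoRNAs (chr4:132308623-132311024, plus strand), was at 6.80 and 8.34 CPM in M1 and at 9.58 and 9.66 CPM in M2. Its M2 libraries were nearly equal and above both M1 libraries. The means were 7.57 ± 1.09 and 9.62 ± 0.0585 CPM (SD, n = 2 each), 1.27-fold higher in M2 (log2 fold change 0.35, SE 0.12, adjusted p = 0.0136 by edgeR's quasi-likelihood test). It was not called by DESeq2 (adjusted p = 0.132), nor without M1 replicate 1 (0.141, at a log2 fold change of 0.20) or M2 replicate 2 (0.0675) by edgeR.

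Snhg15, host of Snora9 (chr11:6525591-6528760, minus strand), was at 8.24 and 8.91 CPM in M1 and at 10.2 and 9.90 CPM in M2. The groups did not overlap, and the test missed the threshold (8.57 ± 0.474 against 10.1 ± 0.224 CPM, SD, n = 2 each; log2 fold change 0.23, SE 0.11, adjusted p = 0.0591 by edgeR's quasi-likelihood test). It passed under 5 of the 14 alternatives, with log2 fold changes of 0.25 to 0.68, among them total-count (adjusted p = 4.17e-05) and upper-quartile scaling (0.00230). The 4 hosts kept similar proportions to one another. Gas5 had 3.89 and 4.08 times the counts of Snhg1 in M1 and 3.61 and 3.72 times in M2, Snhg12 had 0.284 and 0.310 against 0.327 and 0.332 times, and Snhg15 had 0.344 and 0.331 against 0.349 and 0.340 times. Of these, Snhg15 over Snhg1 overlapped between the groups.

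**Figure D4:**
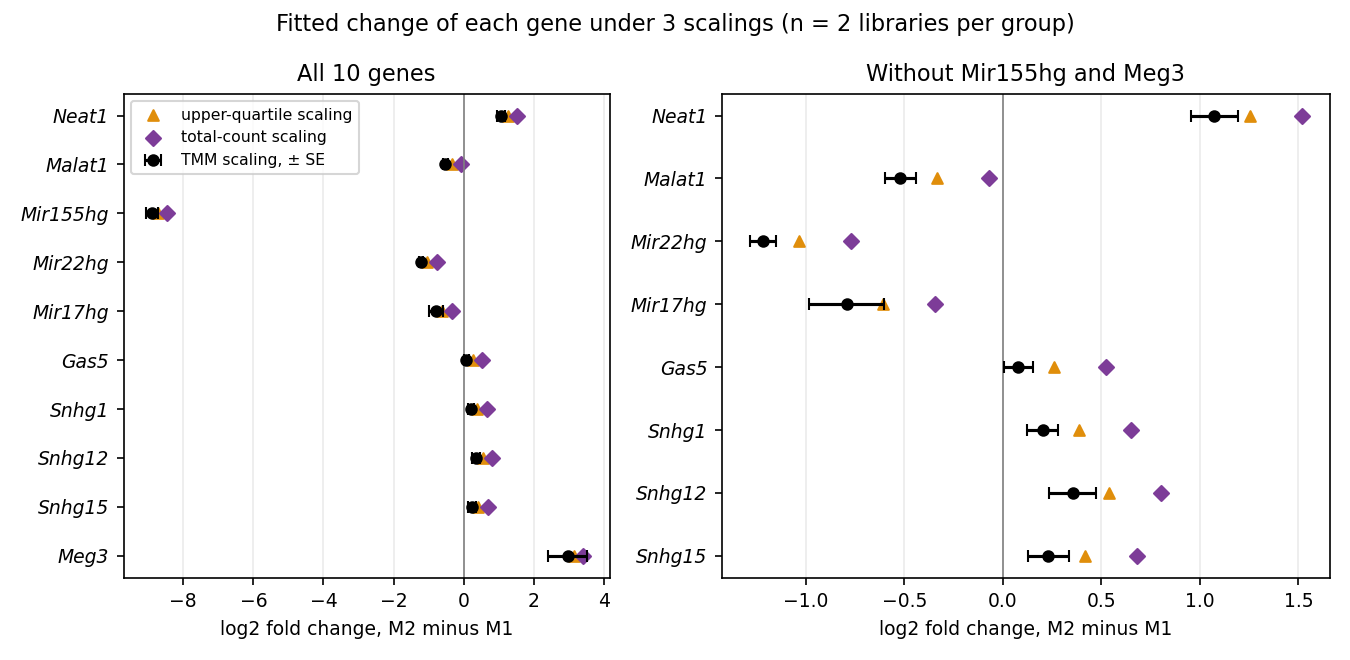
Black points are log2 fold changes of M2 minus M1 with their SE (n = 2 libraries per group) under TMM scaling, and triangles and diamonds are the same under upper-quartile and total-count scaling, for all 10 genes on the left and without Mir155hg and Meg3 on the right. Malat1 moves from -0.52 to -0.071 and Gas5 from 0.08 to 0.53 with total-count scaling.

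Per kilobase of annotated exon, Gas5 was the highest of the 4 in both groups, at 27.0 CPM per kb in M1 and 28.5 in M2, followed by Snhg1 at 8.56 and 9.84, Snhg15 at 6.31 and 7.40 and Snhg12 at 3.15 and 4.00 CPM per kb. The order was the same in both groups. Annotated exons of Snhg1 cover its whole span of 2969 bases because some transcripts keep introns, so levels per length of a spliced transcript would be higher. Snhg1 lies 105 bases from Slc3a2, an amino acid transporter subunit on the opposite strand. Slc3a2 was higher in M1, at 749 and 756 CPM against 390.0 and 387 CPM in M2 (log2 fold change -0.95, SE 0.07, adjusted p = 2.89e-09 by edgeR's quasi-likelihood test). The counts of Snhg1 per count of Slc3a2 were 0.0320 and 0.0355 in M1 and 0.0751 and 0.0753 in M2, 2.23-fold higher in M2. Zbtb37, opposite Gas5, was lower in M2 (log2 fold change -0.32, adjusted p = 0.0171 by the same test). Its span overlaps that of Gas5, but their annotated exons share 0 bases. The library kit does not mark strand, so where exons on opposite strands do overlap, reads cannot be told apart. Inside the 10 genes 24 snoRNA genes are annotated, of which 1, Snora16a in Snhg12, had any count (25 in all), and the share of exon bases that other genes also cover reached 20.9% in Snhg1 and 17.8% in Gas5.

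Promoters were available from RefSeq (GRCm38.p6) for 9 of the 10 genes, with 11 windows of 300 bases from 250 before to 50 after an annotated start. Of the 7 motifs searched on both strands, the palindrome TGACGTCA, the binding letters of the CREB and ATF family, was found in 3 of the 11 windows, those of Gas5, Snhg15 and Meg3, against 1.79% of all 32851 windows. The 2 snoRNA host starts are shown from 100 bases before to 30 after, on the strand of the gene, with TGACGTCA in capitals.
Gas5, chr1:161035066-161035195, plus strand: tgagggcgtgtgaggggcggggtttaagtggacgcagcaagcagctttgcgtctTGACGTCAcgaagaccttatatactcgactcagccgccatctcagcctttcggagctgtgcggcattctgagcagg
Snhg15, chr11:6528731-6528860, minus strand: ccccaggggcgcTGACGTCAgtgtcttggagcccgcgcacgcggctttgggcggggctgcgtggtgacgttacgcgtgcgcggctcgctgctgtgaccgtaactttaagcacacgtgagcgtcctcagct
The motif begins 46 bases before the RefSeq start of Gas5, 88 before that of Snhg15 and 57 before that of Meg3. The RefSeq start of Gas5 lies 744 bases downstream of the 5′ end of its GENCODE span given above, so by GENCODE the motif lies within the gene, 698 bases from that end and in the union of annotated exons. CACGTG, the E-box of MYC and its relatives, was found in the window of Snhg15 (7.15% of all windows). The kappaB motif (4.51% of windows), the gamma-activated motif TTCNNNGAA (8.30%), the STAT6 motif, which has 1 more base in its middle (6.95%), the interferon-stimulated response element (3.44%) and the AP-1 motif TGANTCA (7.81%) were found in 0 of the 11. The motifs were chosen after the values were seen, and a match is a description and not a bound site.

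Other snoRNA hosts moved in both directions, 4 higher in M2, 4 lower and 5 not called of 13 tested, with a median log2 fold change of 0.16 that was 0.61 under total-count scaling. DESeq2 called 2 of them higher in place of 4. Zfas1, whose name marks it as antisense to Znfx1, was the most different of the lower ones, at 69.5 and 62.2 CPM in M1 and 18.4 and 19.1 CPM in M2 (log2 fold change -1.81, SE 0.07, adjusted p = 5.38e-12 by edgeR's quasi-likelihood test). Gas5 had 1.34 and 1.76 times the counts of Zfas1 in M1 and 5.75 and 5.67 times in M2, so these 2 snoRNA hosts changed unequally. Snhg8 was also lower (log2 fold change -1.30, adjusted p = 2.68e-08). Snhg17 was higher, at 9.40 and 13.9 CPM in M1 and 18.7 and 18.9 CPM in M2 (log2 fold change 0.70, adjusted p = 0.00132), as was Epb41l4aos (0.60, adjusted p = 0.0245), which DESeq2 did not call (adjusted p = 0.122). Snhg18 had the largest difference of the higher ones, with 1 and 4 counts in M1 and 39 and 36 in M2 (log2 fold change 3.34). It had enough counts to be tested only through the M2 libraries. Under total-count scaling 7 of the 13 hosts were called higher.

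Proteins that bind snoRNAs and factors of nonsense-mediated decay, which removes many spliced snoRNA hosts, were read beside the hosts. Of 15 snoRNP proteins, 9 were higher in M2, 3 lower and 3 not called, with a median log2 fold change of 0.27 (14 higher and 1 lower under total-count scaling). Dkc1, the H/ACA pseudouridine synthase, was at 9.10 and 9.15 CPM in M1 and 23.9 and 23.6 CPM in M2 (log2 fold change 1.38, adjusted p = 1.39e-09 by edgeR's quasi-likelihood test), and Naf1, an H/ACA assembly factor, was higher by 1.14 (adjusted p = 4.04e-08). Nufip1, a C/D assembly factor, was lower by a log2 fold change of -1.24 (adjusted p = 3.84e-10), and Ruvbl2 by -0.27 (adjusted p = 0.00263). Of 14 decay factors, 11 were lower with a median of -0.53, whereas under total-count scaling 6 were lower and 5 higher with a median of -0.085. Under TMM 0 of them were called higher by edgeR, and 0 at an unadjusted p under 0.05, by DESeq2 or by limma-voom. Smg9, a regulator of the decay kinase, was at 84.7 and 86.7 CPM in M1 and 36.9 and 36.9 CPM in M2 (log2 fold change -1.22, adjusted p = 6.49e-11).

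**Figure D5:**
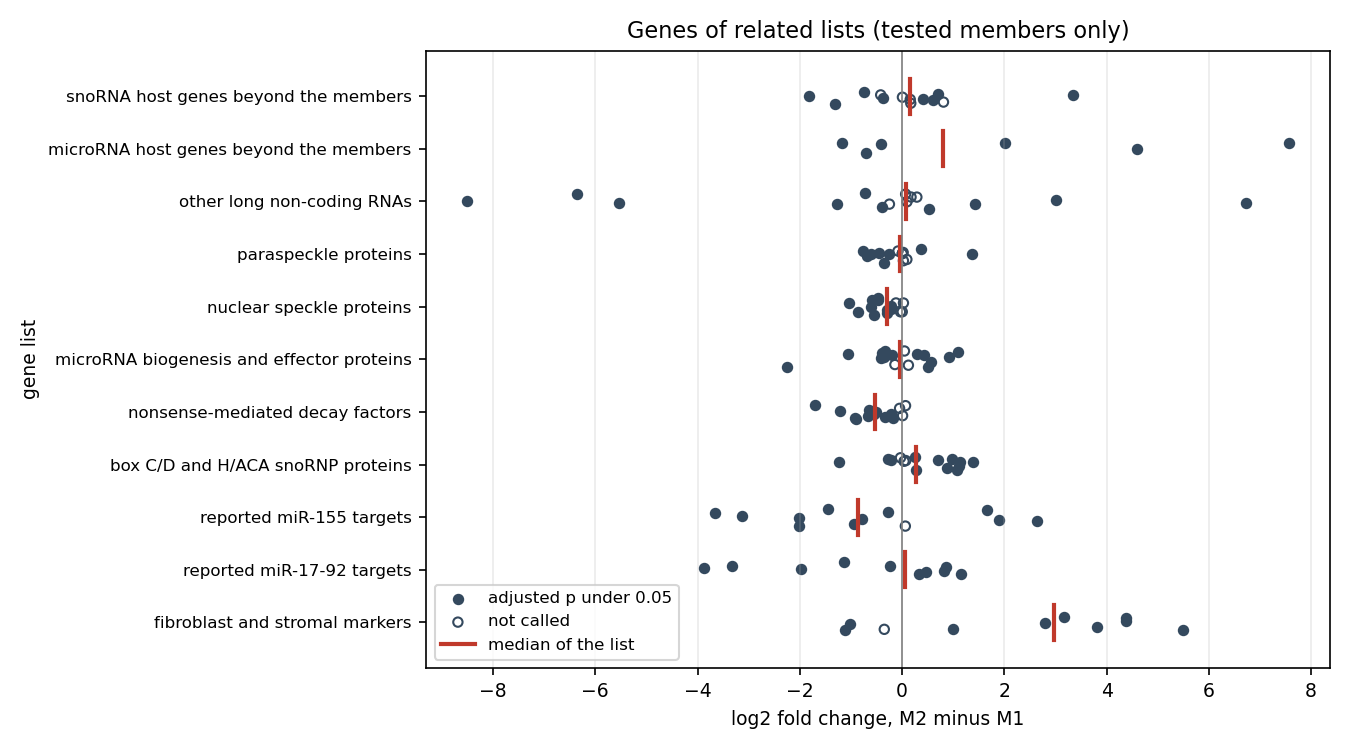
Each point is a tested gene of a list, placed by its log2 fold change (M2 minus M1, TMM scaling), filled where the adjusted p is under 0.05, with a red bar at the median of the list. The nonsense-mediated decay factors sit mostly left of 0 with a median of -0.53 (-0.085 under total-count scaling), and the fibroblast and stromal markers reach the far right.

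Meg3, an imprinted RNA made from the maternal copy of the Dlk1-Dio3 domain (chr12:109541001-109571726, plus strand), had the lowest level of the 10 per length. It had 2 and 2 counts in M1 and 21 and 26 counts in M2, that is 0.0686 and 0.0813 CPM against 0.670 and 0.564 CPM. Both M2 libraries were above both M1 libraries, at levels under 1 CPM throughout. Its log2 fold change was 2.97 (SE 0.56, adjusted p = 1.92e-04 by edgeR's quasi-likelihood test), and the summed counts gave a ratio of 8.16 with an exact 95% interval of 2.98 to 31.2. Per kilobase of annotated exon it stood at 0.00415 CPM per kb in M1 and 0.0341 in M2, below each of the other 9 genes in both groups.

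Other genes of the domain were as low. Rian, a snoRNA host downstream of Meg3, had 2 and 0 counts in M1 and 20 and 28 in M2, a ratio of 16.7 with an exact 95% interval of 4.37 to 142. Dio3, a deiodinase expressed from the paternal copy, had 0 counts in M1 and 15 and 29 in M2. Set against 3 counts over the M1 group this is 10.2-fold higher, and the exact 95% interval of the ratio begins at 7.94. Dlk1 had 1 count in all libraries together and Rtl1 had 0. Of 7 listed genes of the domain, 6 were found and 2, Rian and Dio3, were tested, and both were higher in M2. These 2 genes, and Meg3 too, had enough counts to be tested only through the M2 libraries. At such levels a called gene could only be higher in M2, so the shared direction was fixed by the filter.

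Markers of fibroblasts and stromal cells were read beside Meg3, H19, Rian and Dio3. Like the others, H19 had enough counts to be tested only through the M2 libraries. The direction of these genes was fixed by the filter, so no shared direction with the markers is read from them. Of 10 markers, 7 were higher in M2, 2 lower and 1 not called, and all 10 had counts. They summed to 126 to 132 CPM in M1 and 1419 to 1441 CPM in M2. Acta2, smooth muscle actin, was at 3.40 and 3.74 CPM in M1 and 160 and 163 CPM in M2, and Postn, periostin, differed by a log2 fold change of 4.38. Dcn, decorin, went the other way (log2 fold change -1.12). Neutrophil markers had low levels. Of 6 tested, 4 were higher in M2, 1 lower and 1 not called, with a median log2 fold change of 3.002. Of the higher ones, Ngp, Ltf and Mpo had enough counts to be tested only through the M2 libraries. Their direction was fixed by the filter, which also enters the median, and S100a9 was the other higher marker. All 8 summed to 9.47 to 10.6 CPM in M1 and 11.8 to 15.5 CPM in M2. Ngp, a granule protein, was at 0.309 and 0.244 CPM in M1 and 2.23 and 3.15 CPM in M2, whereas S100a8, the marker with the highest CPM in M1, was lower in M2 (log2 fold change -1.61). The part of either marker list in the result on these imprinted RNAs was not tested.

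The other long non-coding RNAs listed moved in both directions, some by a large amount. Of 15 tested, 4 were higher in M2, 6 lower and 5 not called, with a median log2 fold change of 0.07. Ptgs2os, beside the cyclooxygenase gene Ptgs2, had 840 and 741 counts in M1 and 1 and 5 in M2, a ratio of 380 with an exact 95% interval of 174 to 1036, and Ptgs2os2 had 488 and 434 against 10 and 6 counts, a ratio of 83.0 (50.8 to 146). In the other direction Dnmt3aos, antisense to the DNA methyltransferase gene Dnmt3a, had 4 and 2 counts in M1 and 380 and 573 in M2, a ratio of 110 (50.5 to 301). Pvt1, a neighbour of Myc, was higher by a log2 fold change of 3.01 (adjusted p = 1.03e-08 by edgeR's quasi-likelihood test). Without strand, reads of an antisense RNA and of its partner gene cannot be told apart.

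The genes closest in pattern were found by the Euclidean distance of centred log2(CPM + 0.1) over the 4 libraries, among genes of at least 5 mean CPM. For Mir155hg these were Kcna2, Tnfsf15 and Ccr7, at distances of 0.161, 0.300 and 0.400 on the log2 scale. For Neat1 they were Nme1, Scarb1 and Ppp1r14b (0.0438 to 0.0543), for Malat1 Hmox2, Ccser2 and Cyp4f16 (0.0176 to 0.0394), and for Mir22hg Sec61g, Polr2g and Manf (0.0192 to 0.0300). For Mir17hg they were Slc2a4rg-ps, Mir5125 and Mecr (0.164 to 0.188). For the snoRNA hosts they were Ndufa7 and Mrps2 (Gas5), Naxd, Yars2 and Snrnp70 (Snhg1), Csf2ra, Tecr and Lrrc28 (Snhg12) and Clcc1, Zfp451 and Thoc5 (Snhg15), at distances of 0.0105 to 0.0457. For Meg3 they were Mettl13, Asap1 and Sh3pxd2a (0.116 to 0.142), with fitted log2 fold changes of 1.95 to 2.14 against 2.97 for Meg3. The 0.1 added to CPM exceeds the level of Meg3 in M1, so this distance understates its difference. None of these genes is one of the 10 described here, and the likeness rests on 4 libraries of 2 groups.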

How the data were processed

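Per the labels' protocols, oligo(dT)-selected RNA went into unstranded libraries sequenced as paired reads of 150 bases. The authors deposited raw read counts, whole numbers for each gene in each of the 4 libraries. Tools named per the submitters' processing notes are STAR 2.5.2b, Trimmomatic 0.36, Subread 1.5.2 with featureCounts, DESeq and DESeq2, with GRCm38 as the build. How they were run, and with which strand option, is not given in the sources used here. A comparison table by the authors was not used here.

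Gene identifiers were matched to GENCODE vM21, where 48970 of 49315 had a symbol. The fit used edgeR 4.0.16 in R 4.3.3 on all 4 libraries: filterByExpr (minimum count 10, total 15), TMM, a robust quasi-likelihood fit and its two-sided F test, with Benjamini-Hochberg adjustment over 14656 genes and a threshold of 0.05. SE is the absolute log2 fold change over the square root of F. Ratios of few counts have exact 95% intervals, which cover counting error only, and a floor of 3 counts over a group stands for 0. Replicate numbers follow accession order and pair nothing. The scripts were tested on simulated data.

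The 10 genes and all lists were chosen with earlier results of these data known. The text names all 10 genes, and of each list up to 2 called genes each way with the largest change and a mean of at least 1 CPM, or the 2 most abundant where none was called. It also names neighbouring genes and the 3 genes nearest in pattern. A few genes chosen this way are not reported here. Dlk1, Rtl1, Il13ra1, Fos, Snhg18 and several cell type markers were named after their values were seen, as were the within-library ratios and the motifs. Alternatives were DESeq2 1.42.0, limma-voom (limma 3.58.1), a non-robust fit, glmTreat against a log2 change of 1, scaling by RLE, upper quartile, total count or TMM with the 50 most abundant genes removed, no filter or one of 5 CPM in 2 libraries, and leaving out each library.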

Additional observations from a re-analysis of the deposited data

How the results depend on the processing

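Among 139 recomputed log2 fold changes of the 10 genes, 116 kept their direction and their side of the threshold, 8 were newly called, 14 lost the call and 1, Gas5, turned (-0.038 without M1 replicate 1). With glmTreat beyond log2 1, 4840 genes were called, and 3 of the 10 (1 higher, 2 lower); Neat1 (1.07), Malat1 (-0.52), Mir17hg (-0.79), Snhg1 (0.20) and Snhg12 (0.35) were lost. With DESeq2, 2 were called higher, and Snhg1 (0.21) and Snhg12 (0.35) were lost. With total-count scaling, 6 were called higher and 2 lower: Malat1 (-0.071) and Mir17hg (-0.34) were lost, Gas5 (0.53) and Snhg15 (0.68) gained. With upper-quartile scaling Gas5 (0.26) and Snhg15 (0.42) were gained, and Snhg15 also with no filter (0.29) or a 5 CPM filter (0.25), where Meg3 was not tested. Leaving out each library gave 6 to 10 calls, 2 to 6 of them higher, and ranges of -0.038 to 0.20 for Gas5, 0.12 to 0.28 for Snhg1, 0.20 to 0.50 for Snhg12 and 0.17 to 0.28 for Snhg15. The lone library then left in a group is assumed to vary like the other group. Lists counted again under total-count scaling gave 7 snoRNA hosts higher, 1 microRNA host lower, 9 paraspeckle proteins higher and 3 lower, 7 nuclear speckle proteins higher and 3 lower, 10 microRNA proteins higher and 2 lower, 5 decay factors higher and 6 lower, 14 snoRNP proteins higher and 1 lower, and 5 miR-155 targets higher. Under upper-quartile scaling 6 paraspeckle proteins were higher, 3 nuclear speckle proteins higher and 7 lower, 1 decay factor higher and 1 snoRNP protein lower. Leaving out a library gave 0 to 1 nuclear speckle proteins higher and 1 to 3 snoRNP proteins lower. The share of all calls that were higher was 51.4%, 71.9% with total-count and 60.8% with upper-quartile scaling. The cause of these shifts was not tested. No paired analysis was possible because the labels give the libraries no replicate numbers. Depth limits Meg3, Rian and Dio3, and Mir155hg in M2.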
